A study of Mus musculus with 4 samples.

Results

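The genes described here are 10 core members of the Notch pathway, which is signalling between neighbouring cells through a receptor that is cut on contact with its ligand. They are the receptors Notch1, Notch2, Notch3 and Notch4, the ligands Dll1, Dll4, Jag1 and Jag2, and the target genes Hes1 and Hes5. A probe was assigned to a gene when its gene name in the array files, without a trailing distance, was one of these 10 symbols. This found 52 of 83122 probes, with 26 probes for 5 genes on each of 2 arrays, and each gene had 1 region of neighbouring probes.

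The study compared intestinal genomic DNA of young and old C57BL/6 mice, a common inbred strain, aged 3 and 32 months, to ask how DNA methylation differs with age. The 3-month DNA was labelled green and the 32-month DNA red on both arrays. No array had the dyes exchanged, so a difference between ages cannot be told apart from a difference between dyes. There was 1 sample per age and array, hence no replicate check, and no p-value was computed. All mice were of this strain, the first array's header marks both samples WT, and the labels name no treatment, sex, gut segment or number of animals per sample. Intestinal DNA comes from a mixture of cells, so a change in the share of a cell type and a change in methylation within cells cannot be told apart.

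In Notch signalling a Delta-like (Dll) or Jagged (Jag) ligand on one cell binds a Notch receptor on the next, and a protease complex then frees the receptor's inner part. That fragment enters the nucleus, joins the DNA-binding protein Rbpj and turns on repressors of the Hes and Hey families. In the intestinal crypt this signalling keeps stem and progenitor cells dividing and steers their daughters to absorptive rather than secretory fates, with Dll1 and Dll4 as the ligands and Hes1 as a main target. Cytosine methylation at CpG dinucleotides near a start site is a DNA mark that is associated with silent promoters.

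Dll1 and Hes5 had the most negative differences, and their probes are shown because the results below turn on them. Each is printed 5′ to 3′ on the plus strand with its CpG dinucleotides in capitals. Positions are those in the array files, which state no genome build. For Dll1 the 4 probes that the array design calls promoter are given from the one over the start site to the farthest upstream one.
Dll1 chr17:15080764-15080809: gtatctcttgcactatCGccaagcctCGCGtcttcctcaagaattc
Dll1 chr17:15080986-15081030: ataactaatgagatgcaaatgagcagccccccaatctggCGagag
Dll1 chr17:15081189-15081233: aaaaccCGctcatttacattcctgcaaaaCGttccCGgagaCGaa
Dll1 chr17:15081385-15081429: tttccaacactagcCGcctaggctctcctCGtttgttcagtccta

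The Hes5 probes are given from the farthest upstream one to the last inside the gene. The first 5 are annotated promoter and the last 2 inside.
Hes5 chr4:153803710-153803765: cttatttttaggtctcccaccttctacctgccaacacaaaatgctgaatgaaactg
Hes5 chr4:153803999-153804052: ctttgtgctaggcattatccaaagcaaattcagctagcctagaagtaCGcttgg
Hes5 chr4:153804127-153804179: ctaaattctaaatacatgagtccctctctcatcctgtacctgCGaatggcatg
Hes5 chr4:153804248-153804292: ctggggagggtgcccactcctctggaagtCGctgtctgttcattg
Hes5 chr4:153804551-153804595: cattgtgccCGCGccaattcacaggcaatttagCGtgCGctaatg
Hes5 chr4:153804817-153804861: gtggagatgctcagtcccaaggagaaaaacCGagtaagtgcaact
Hes5 chr4:153804975-153805019: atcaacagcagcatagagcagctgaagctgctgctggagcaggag

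Sequence before the start site is shown for the same 2 genes, because the ratios of their probes changed along it. RefSeq's promoter table for assembly GRCm38.p6 held 9 of the 10 genes and not Hes1, and 7 probes of 5 genes matched a promoter letter for letter. The 250 bases before the start site are printed on the strand of the gene, with the bases of matching probes in capitals.
Dll1 chr17:15375824-15376073, minus strand: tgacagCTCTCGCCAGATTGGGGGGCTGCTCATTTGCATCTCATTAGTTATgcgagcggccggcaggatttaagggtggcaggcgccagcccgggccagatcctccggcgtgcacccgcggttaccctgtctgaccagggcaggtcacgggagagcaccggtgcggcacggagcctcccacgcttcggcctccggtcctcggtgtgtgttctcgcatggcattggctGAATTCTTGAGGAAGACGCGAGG
Hes5 chr4:154960673-154960922, plus strand: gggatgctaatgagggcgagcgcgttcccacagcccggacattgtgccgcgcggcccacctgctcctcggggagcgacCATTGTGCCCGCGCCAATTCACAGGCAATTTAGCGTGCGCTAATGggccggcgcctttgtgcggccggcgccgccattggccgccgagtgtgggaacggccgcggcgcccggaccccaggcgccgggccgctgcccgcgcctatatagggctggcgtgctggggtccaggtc

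Values below are log2 ratios of 32-month over 3-month processed signal, centred on the median of the array, so values above 0 mean more signal in the old sample. Signals are brightness in the scanner's own units, and how the DNA was selected by its methylation before labelling is not given in the sources used here, so no value is called a methylation level. Probes counted as usable if the scanner software put them well above background at 1 age or both, which held for 49 of the 52 probes. Each region is given by the median of its usable probes and the SD among them, which is a spread along the DNA and not between animals. A region was called when that median was at least 1 or at most -1 and every usable probe lay on that side of 0.

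Across the arrays 71.2% and 72.5% of probes were well above background at 3 and 32 months on the first and 71.4% and 70.1% on the second, and no probe was saturated. The second array, which carries Notch3, Notch4, Dll1, Jag2 and Hes1, had 7.91% of its usable probes at 1 or more and 4.49% at -1 or less, against 4.73% and 2.18% on the first. On the second array 20 of 508 regions of the X chromosome were called lower, against 33 of 7311 autosomal ones, and 2 of 9 Y regions were called higher. All 10 Notch genes are autosomal.

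None of the 10 regions was called in either direction. Over all 15352 regions with at least 2 usable probes, 2.01% were called higher and 0.632% lower, so a count of 0 among 10 is near that background. The shares were 1.36% higher and 0.585% lower on the first array and 2.64% and 0.677% on the second. Higher and lower calls over both arrays numbered 309 and 97, against 241 and 133 without centring and 421 and 20 after normexp correction, a model-based removal of background applied to the mean spot signals in place of the scanner's own processing. The region medians ran from -1.35 for Dll1 to 0.51 for Notch3, with 6 above 0 and 4 below. Their median was 0.13, beside 0.015 over all regions. At the level of single probes, 5 of the 49 were at -1 or less and 1 was at 1 or more, beside 3.35% and 6.35% of all usable probes. Of those 5 probes 4 belonged to Dll1 and 1 to Hes5, and the probe above 1 belonged to Notch2.

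**Figure D1:**
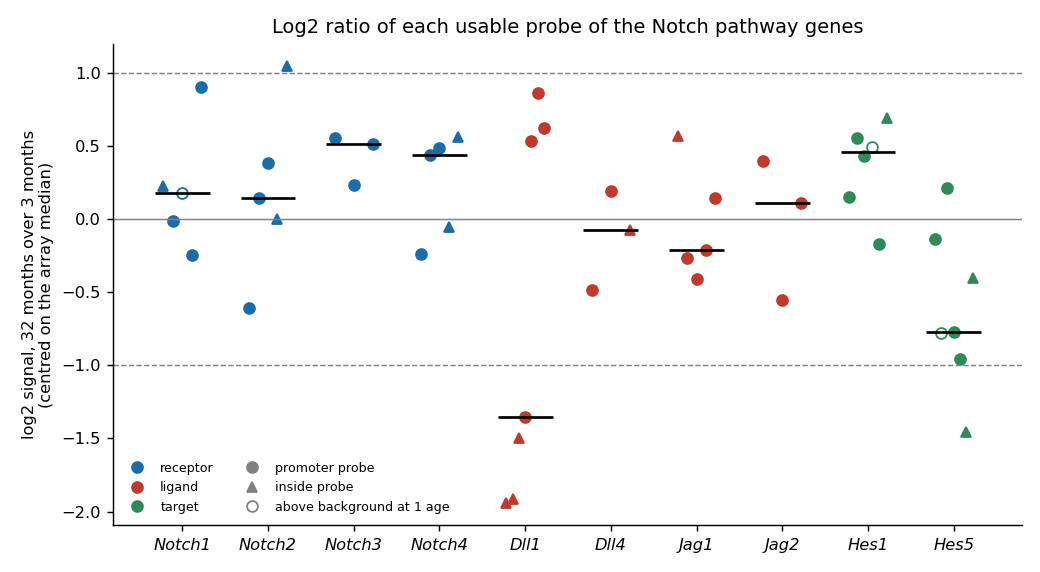
Each point is the log2 ratio of 32-month over 3-month signal of 1 usable probe (vertical axis, centred on the array median) for the 10 genes, with bars at the region medians and dashed lines at 1 and -1. Circles are promoter and triangles inside probes, open symbols were well above background at 1 age, and the Dll1 points form separate groups above and below 0.

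**Figure D2:**
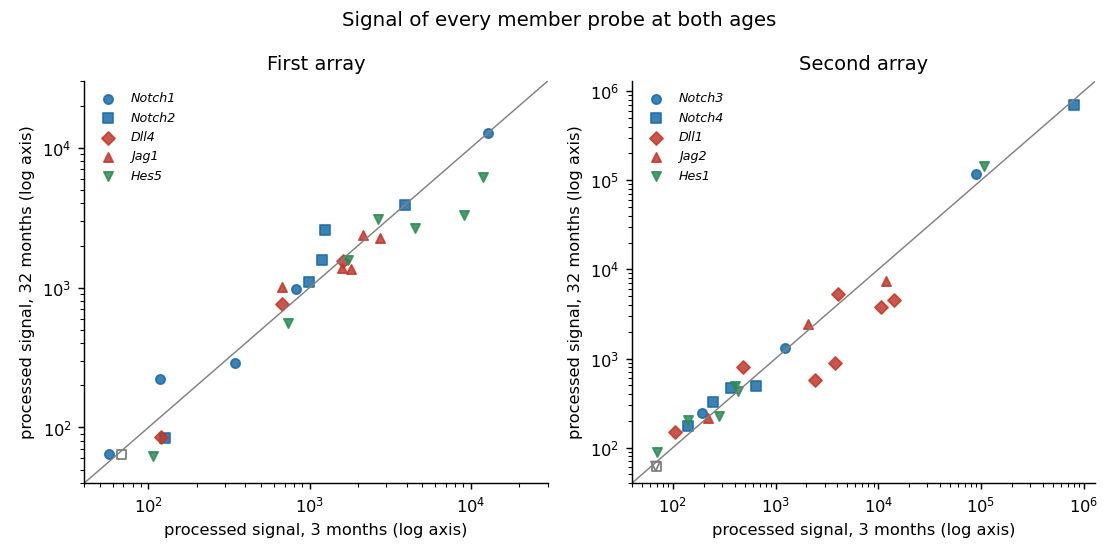
Processed signal of every probe at 3 months (horizontal) and 32 months (vertical), both on log axes, for the genes of each array, with the line of equal signal and grey open symbols for the 3 unusable probes. The 4 Dll1 probes over the start site and inside the gene and the Hes5 probes between 4530 and 11900 at 3 months lie below the line, while the Dll1 probe with 4060 at 3 months lies above it.

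The 4 receptor genes had small positive medians, from 0.14 to 0.51. Notch1, which acts in intestinal crypts together with Notch2, had a region of 5 probes at chr2:26325299-26326811 with a median of 0.18 ± 0.43 (SD over 5 probes). Its probe inside the gene had a signal of 827 at 3 months and 971 at 32 months. The promoter probe nearest the start site had 12800 and 12700, a log2 ratio of -0.016 with a scanner error of 0.20 for that spot. These signals were thus nearly the same at both ages. The farthest upstream probe was highest at 0.90, with signals of 118 and 221 and a spot error of 0.78, and the next had 343 and 290 and a ratio of -0.25. A Notch1 probe with 57.3 and 64.9 was well above background at 32 months alone. Its log2 ratio of 0.18, or 1.13-fold, was smaller than its spot error of 1.96.

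Notch2 had 5 usable probes of 6 at chr3:98097926-98099420 and a median of 0.14 ± 0.60 (SD over 5 probes). Its probes did not move together. The last probe inside the gene rose from 1240 at 3 months to 2570 at 32 months, a 2.07-fold difference with a log2 ratio of 1.05 and a spot error of 0.24. The other inside probe, 175 bp upstream of it by start position, had 3890 and 3910. The promoter probes had 992 and 1100, 1200 and 1570, and 127 and 83.6, or log2 ratios of 0.14, 0.38 and -0.61. The single Notch2 probe past 1 was therefore not matched by its nearest neighbour.

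Notch3, known for its role in smooth muscle of vessels, had the highest median of the 10 genes. Its 3 promoter probes at chr17:31895940-31896454 had signals of 89400 and 119000, 1240 and 1320, and 191 and 247 at 3 and 32 months. All 3 were higher at 32 months, with log2 ratios of 0.55, 0.23 and 0.51 and a median of 0.51 ± 0.18 (SD over 3 probes). That median stood at percentile 88.7 of the regions on the second array, whose overall median was 0.079. Without centring the median was 0.37.

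Notch4, a receptor expressed mainly in endothelium, had a median of 0.44 ± 0.36 over 5 usable probes of 6 at chr17:34171416-34172680. Its brightest probe, inside the gene, had signals of 808000 and 706000 and a log2 ratio of -0.056. The probe over the start site had 371 and 471, and the last inside probe had 244 and 326, with log2 ratios of 0.48 and 0.56. The farthest upstream probe had 639 and 492, a ratio of -0.24. Probes above and below 0 thus both occurred along this gene, and its remaining usable probe, with 142 and 175, had 0.44. Of the receptors, Notch3 alone had all its usable probes on the same side of 0.

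Among the ligands, Dll1 had the most negative median of the 10 genes and Dll4, Jag1 and Jag2 lay near 0. Dll1, a ligand that in the crypt acts together with Dll4, had a median of -1.35 ± 1.28 (SD over 7 probes) at chr17:15080069-15081429. That median was at percentile 0.79 of the regions on the second array, and its SD was at percentile 95.2. The region was not called because its probes split into groups on opposite sides of 0. The probe that gives the median lies over the start site.

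A run of 4 neighbouring Dll1 probes, the one over the start site and the 3 inside the gene, had lower signal at 32 months. Their signals at 3 and 32 months were 10700 and 3800, 14200 and 4560, 2410 and 580, and 3800 and 898, in order from the start site into the gene. This was 2.56-fold, 2.83-fold, 3.77-fold and 3.84-fold lower at 32 months, with log2 ratios of -1.35, -1.50, -1.92 and -1.94. Spot errors were between 0.25 and 0.30, an error that covers the reading of 1 spot and neither the spread between animals nor the scaling.

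The 3 Dll1 probes farther upstream had higher signal at 32 months. They had 4060 and 5330, 487 and 804, and 106 and 148 at 3 and 32 months, with log2 ratios of 0.53, 0.86 and 0.62. For the first of these 3 the spot error was 0.21 and for the second 0.28, while for the farthest it was 1.09 and thus larger than its ratio. These groups of Dll1 probes were drawn by the sign of their ratios. By the design's annotation, its 4 promoter probes ran from -1.35 to 0.86 and its 3 inside probes from -1.94 to -1.50. When probes annotated inside were taken as a region of their own, a split chosen after the values were seen, the inside region of Dll1 had a median of -1.92 ± 0.25 (SD over 3 probes) and was called lower. With that split 3.31% of all 17506 regions were called higher and 1.00% lower, and Dll1 was the only one among the Notch genes.

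Runs of this kind, looked for after the Dll1 values were seen, were uncommon on the arrays. Of 8103 regions with at least 4 usable probes, 28 (0.346%) had 4 neighbouring probes all at -1 or less, and 117 (1.44%) had 4 all at 1 or more. Of 2314 regions with at least 6 usable probes, 11 (0.475%), Dll1 among them, held at least 3 probes at -1 or less and at least 3 above 0. These shares pool both arrays and all chromosomes, X included. The array of Dll1 had 4.49% of its usable probes at -1 or less, against 2.18% on the other. Many of the regions counted also had fewer probes than the 7 of Dll1, so the shares are not those of regions like it.

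The sign of the Dll1 ratios changed in a short interval before the start site. The probe from -244 to -200 bp had 0.53 and the probe from -23 to 22 had -1.35, with positions counted from the first transcribed base, which is position 0. Probe positions beyond the promoter window were carried over from the matching probes by the spacing in the array files. The interval holds a CCCGGG at -161, which occurs once in this 300-base promoter and in 13.5% of all 32851 RefSeq promoters of that length. It is not particular to Dll1, since the Notch3 promoter held 2. The probes of Notch3 were all above 0 and were not placed relative to its start site. None of the other genes in the promoter table held CCCGGG, and whether it bears on the ratios was not tested. CCCGGG is the recognition sequence of the enzyme pair SmaI and XmaI, used in some methylation assays, and no source used here says whether they were used. A second Dll1 start site in the table lies 1109 bp farther upstream, beyond the last probe, and its promoter also held 1 CCCGGG.

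**Figure D3:**
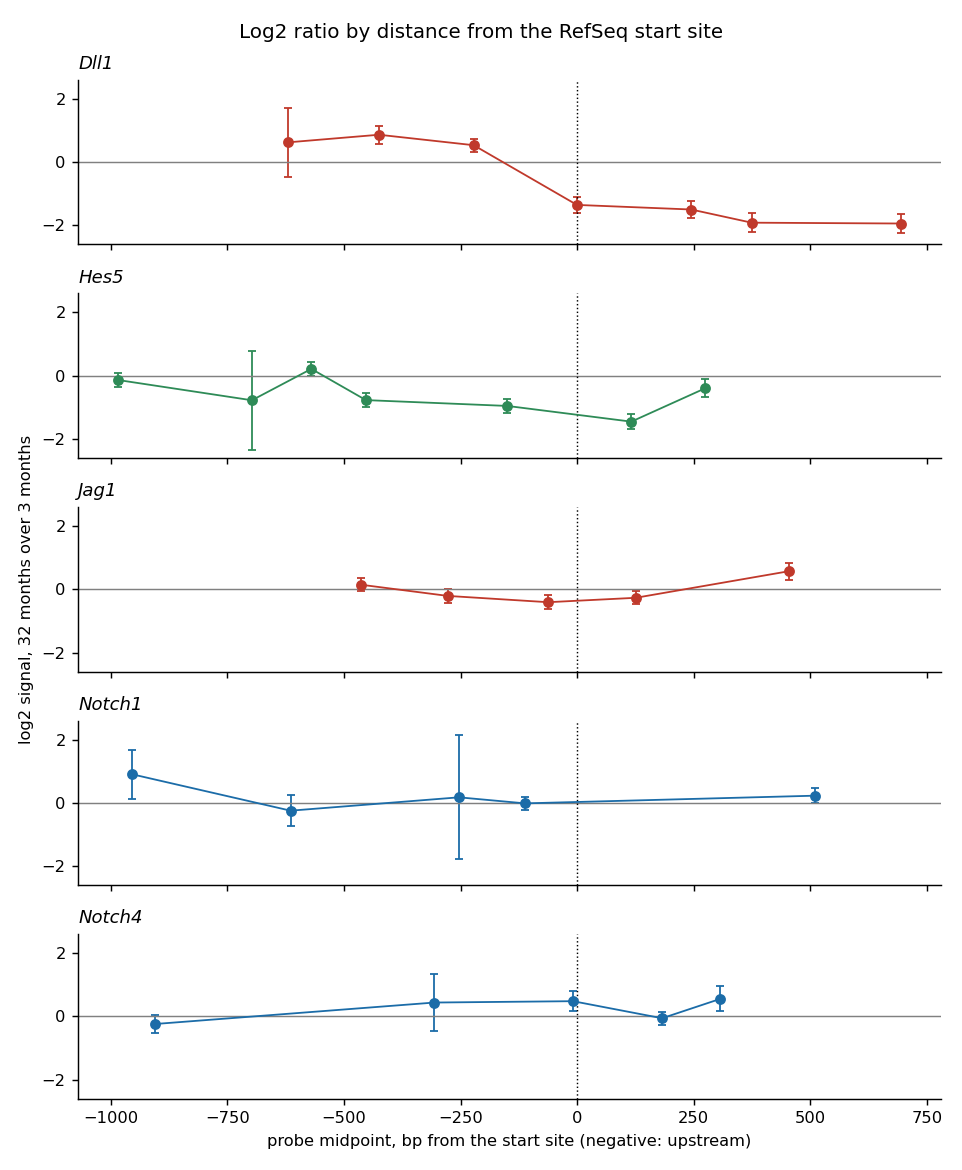
Log2 ratio of 32-month over 3-month signal (vertical) against the distance of each usable probe's midpoint from the RefSeq start site in bp (horizontal, dotted line at the start site) for the 5 genes with a probe in the promoter table. Bars are the scanner's error for 1 spot, and Dll1 passes from 0.53 upstream to -1.35 at the start site while Hes5 is lowest at -1.45 just inside the gene.

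The ratios of the 4 lower Dll1 probes were nearer 0 when computed from the mean spot signals after normexp correction. This route also leaves out the scanner's detrending and its scaling between dyes. The 4 probes then had -0.45, -0.52, -0.65 and -0.80, all still below 0 and none past -1. The region median was then -0.45. This upward move was not particular to Dll1. The brightest probes of the other Notch genes on the second array, Notch3, Notch4, Jag2 and Hes1, also moved up. They went from 0.55, -0.056, -0.56 and 0.55 to 1.51, 0.90, 0.29 and 1.48. The mean spot signals before any scaling were 733 and 826, 927 and 985, 191 and 208, and 250.0 and 245 at 3 and 32 months, beside medians of 61.7 and 107 for 507 negative control spots. The scanner software had multiplied green by 18.0 and red by 5.83 on this array to bring the dyes to one scale. Before scaling, and with background still included, 3 of these 4 probes were thus brighter at 32 months, where the control median was also higher. The lower 32-month processed signal of the 4 probes is a difference relative to the other probes of the array. Upstream, the mean spot signals were 287 and 1030, 89.0 and 252, and 68.3 and 131. After normexp correction those 3 had 1.25, 0.72 and -0.10, so the jump at the start site remained and the farthest probe changed sign.

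Dll4, the other crypt ligand, had 3 probes at chr2:119016646-119017549 and a median of -0.077 ± 0.34. Signals were 119 and 85.1, 671 and 767, and 1620 and 1540 at 3 and 32 months. The spot error of the first, 1.18, was larger than its log2 ratio of -0.49, and the other ratios were 0.19 and -0.077. No Dll4 probe stood clearly on either side of 0. After normexp correction its median was 0.21, and it was 0.056 without the probe farthest from the median.

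Jag1, a ligand also active in vessel walls and bile ducts, had a median of -0.21 ± 0.39 over 5 probes at chr2:136807485-136808446. The 3 probes around the start site had signals of 1580 and 1370, 1800 and 1360, and 2740 and 2280, with log2 ratios of -0.21, -0.41 and -0.27. The probe farther upstream had 2150 and 2380 and the probe inside the gene 678 and 1010, with 0.14 and 0.57. The lowest Jag1 ratio thus lay just upstream of the start site and the highest inside the gene. After normexp correction the median was 0.17, so its sign turned.

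Jag2 had 3 promoter probes at chr12:113377607-113378321 and a median of 0.11 ± 0.49, or -0.033 without centring. Its middle probe fell from 12000 at 3 months to 7410 at 32 months, a log2 ratio of -0.56 with a spot error of 0.21. The probes on its sides had 2060 and 2460, and 222 and 217, with ratios of 0.40 and 0.11. The middle probe held 0 CpG and the one with 0.40 held 5, the most of any usable probe of the 10 genes. The 300-base Jag2 promoter of the RefSeq table held 63 CpG, beside a median of 7 over all promoters. No Jag2 probe matched that promoter letter for letter, so the distance of the probes from it is not known.

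The target genes differed from each other in sign. Hes1, the repressor that holds crypt progenitors back from secretory fate, had a median of 0.46 ± 0.32 over 6 usable probes of 7 at chr16:29984126-29985539. Its brightest probe rose from 108000 to 144000, a log2 ratio of 0.55 with a spot error of 0.21. Next came 403 and 493, and 433 and 437, with 0.43 and 0.15. The inside probe had 139 and 204, a ratio of 0.69 with an error of 0.81. A Hes1 promoter probe with 282 and 227 was the only usable one below 0, at -0.17. Another, with 70.7 and 90.1, was well above background at 32 months alone. It had a ratio of 0.49, or 1.40-fold, with a spot error of 1.74. Hes1 stood at percentile 86.6 of its array, close to Notch3 and Notch4, and was not called.

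Hes5, a Hes repressor known mainly from neural progenitors, was lower at 32 months at 6 of 7 probes, with a median of -0.77 ± 0.55 at chr4:153803710-153805019. That median was at percentile 1.54 of the first array. The strongest difference lay at the first probe inside the gene, which had 9090 at 3 months and 3330 at 32 months, 2.74-fold lower with a log2 ratio of -1.45 and a spot error of 0.24. The promoter probe nearest the start site had 11900 and 6150, a ratio of -0.96, and the next upstream had 4530 and 2660, a ratio of -0.77. These 3 probes follow each other along the DNA. The last inside probe had 731 and 555 and a ratio of -0.40.

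Farther upstream of Hes5 the probes did not keep this difference. They had 2640 and 3070 with 0.21, 107 and 62.6 with -0.78, and 1730 and 1580 with -0.14. The spot error of the last of these, 0.22, was larger than the size of its ratio, which turned to 0.23 after normexp correction. The probe with 107 and 62.6 was not well above background at 32 months, and the spot error of its 1.71-fold difference was 1.56. The single probe above 0 kept the region from a call on agreement, and the median itself was short of -1. After normexp correction the median was -0.18 and the first inside probe had -0.84. Unscaled mean signals of that inside probe were 1020 and 1150, while the dye factors on this array were 9.24 for green and 3.08 for red.

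The Hes5 promoter held 41 CpG in 300 bases, more than 96.5% of all promoters. It held TGGGAA, the core of the sequence bound by Rbpj, at -82 and in reverse as TTCCCA at -226, on opposite strands and not overlapping. At least 1 such site on either strand was found in 25.6% of all promoters. None of the other 8 genes in the table held these letters in this window. Both sites lie outside the printed probe from -172 to -128. CACNAG, a sequence bound by Hes proteins, was found on either strand in promoters of Notch1, Notch2, Notch3, Dll4 and the upstream start site of Dll1, and in 42.5% of all promoters.

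**Figure D4:**
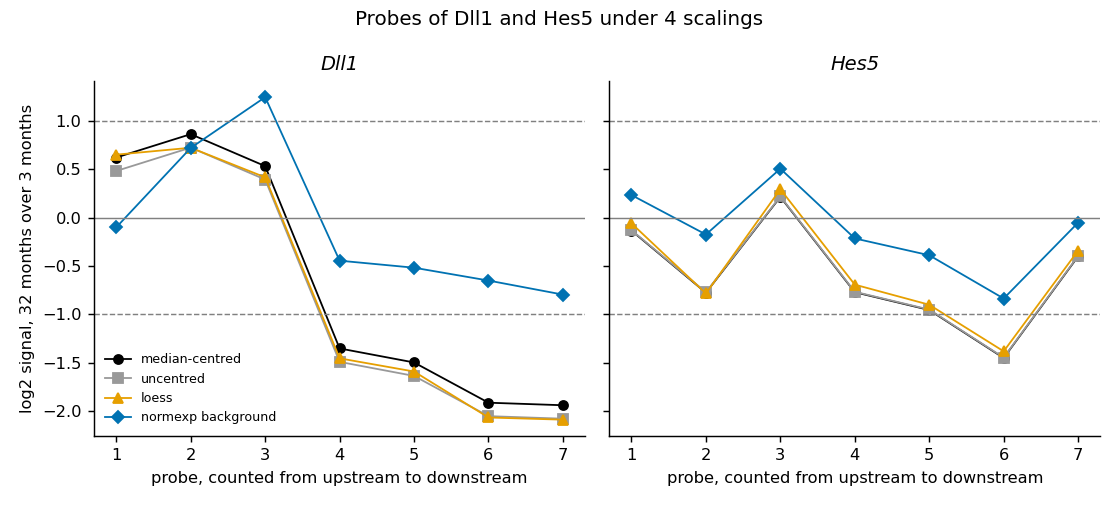
Log2 ratio of 32-month over 3-month signal (vertical) of the 7 probes of Dll1 and the 7 of Hes5, in order from upstream to downstream (horizontal), with ratios centred on the array median, uncentred, after loess on brightness and after normexp background correction. With the first 3 the last 4 Dll1 probes lie at -1.35 or lower, and after normexp correction they lie between -0.45 and -0.80.

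Promoter and inside probes of the 10 genes had medians of 0.15 over 36 probes and -0.056 over 13 probes. Over all usable probes of the arrays these were 0.0097 and 0.026. The inside probes included the 3 of Dll1 and 2 of Hes5, and 6 of the 13 were above 0. Within 0.5 of 0 lay 28 of the 49 probes (57.1%), beside 72.4% of all usable probes. Spot errors of the 49 ran from 0.20 to 1.96 with a median of 0.25.

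Outside these 10 genes, a list of 64 further pathway genes had 3 regions called higher and none lower among 63 measured regions of 56 genes, beside the 2.01% and 0.632% of all regions. Nov, a secreted matrix protein reported to bind Notch1, had a median of 2.72 ± 0.65 (SD over 6 probes) at chr15:54574921-54576265, a 6.60-fold difference. Dtx1, a ubiquitin ligase that acts on Notch receptors, had 2.55 ± 0.35 over 5 probes at chr5:120970886-120971945, or 5.86-fold. Hes7, a Hes repressor of the clock that forms body segments, had 1.76 ± 1.12 over 5 probes at chr11:68935715-68936850, or 3.39-fold. All 3 were higher at 32 months at every usable probe, with lowest probes at 1.42, 2.39 and 0.60. The list's median over its 63 regions was 0.029, beside 0.015 over all regions.

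**Figure D5:**
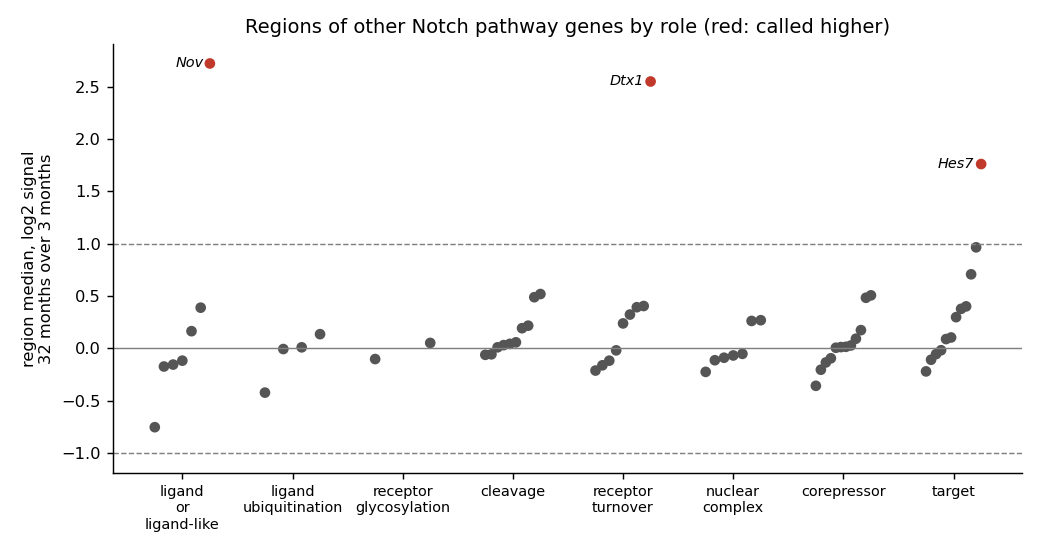
Region medians of log2 32-month over 3-month signal (vertical) for the 63 measured regions of other pathway genes, grouped by role (horizontal), with dashed lines at 1 and -1. Nov, Dtx1 and Hes7, in red, lie at 2.72, 2.55 and 1.76 and every other region lies below 1.

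By role, the medians over regions of the other pathway genes lay between -0.12 and 0.24, while single regions spread more widely. The ranges given by role cover regions of at least 3 usable probes. Besides Nov, ligand-like genes ran from -0.75 ± 0.15 (SD over 3 probes) for Cntn1 to 0.39 for Dll3. Cntn1 is a neural adhesion protein reported as a Notch ligand. Ubiquitin ligases that act on ligands ran from -0.42 for Neurl1b to 0.14 for Mib2. Lfng, which adds sugars to Notch receptors, had -0.10. Genes of receptor cleavage ran from -0.061 for Psen2, a catalytic subunit of gamma-secretase, to 0.52 for Adam17, a shedding protease.

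Receptor turnover genes other than Dtx1 ran from -0.21 for Numbl to 0.39 for a Dtx3 region of 10 probes. Genes of the nuclear complex ran from -0.22 for Snw1 to 0.27 for Rbpjl, a relative of Rbpj, and corepressors from -0.36 for Tle4 to 0.51 for Tle1. Target genes went down to -0.11 for Hey1, and a Hes3 region of 2 probes, shared with its neighbour Icmt, had -0.22. Hey2, another target, had 0.71 ± 0.23 over 4 probes, the lowest at 0.39. No region outside the 3 called ones reached 1. The second region of Ptcra, a pre-T-cell receptor gene, came closest at 0.97 ± 0.40 over 4 probes, and it is shared with a neighbouring gene.

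Another list held genes of secretory fate, which Notch signalling holds back, and the stem cell gene Olfm4, and 4 of its 5 genes were measured. Atoh1, the secretory factor that Hes1 represses, had no probe under its name. Spdef, a goblet cell factor, was called higher at 1.04 ± 0.51 over 4 probes, and was no longer called without centring, after loess on brightness or after normexp correction. Neurog3, the factor of hormone-producing cells, had -0.12 ± 0.40 over 6 probes. Olfm4 had 0.33 ± 0.98 over 5 probes and Gfi1 0.13 over 2 probes.

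For lists of genes that mark other cells of the gut wall, the median over the regions of each list was near 0, but single regions lay farther out. The median was 0.13 over 9 regions of epithelial genes, -0.030 over 11 of immune genes and 0.11 over 12 of smooth muscle and stroma. It was 0.053 over 7 regions of enteric neurons and glia and -0.096 over 4 of endothelium. Ltb of the immune list was the only one called, at 1.63 ± 0.15 over 2 probes. Another Ltb region, shared with its neighbour Lst1, had 1.04 ± 1.44 over 4 probes, with its lowest probe at -0.16. Tagln of the smooth muscle list had 0.98 ± 1.75 over 5 probes. Lgr5 of the epithelial list had 0.82 ± 0.78 over 6 probes, the lowest at 0.11. The lowest region of these lists was S100b, a glial gene, at -0.53 ± 1.16 over 3 probes. DNA signal does not measure expression, so the labelled tissue could not be checked by these markers.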

How the data were processed

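Genomic DNA from 4 samples on 2 custom Agilent arrays was used. Per the submitters' processing notes images were read with Agilent Feature Extraction 9.1.3.1. The intensity values used are the deposited processed signals, per the file headers background-subtracted, detrended and brought to one scale by a linear factor per dye; mean and local background intensity values served in an alternative. The deposited log10 ratio's error, turned to log2 units, is the spot error. The files of both samples of an array were identical, and each channel was used once. The authors' value table equalled the processed signals in 100% of spots.

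Control spots, 39 flagged probes and 271 without a position were left out. Array medians before centring were 0.0044 and -0.14. Probes with the same gene name at most 1000 bp apart formed a region, and 2 usable probes were required. Signal over background and the number of arrays limit precision. A difference between ages is 1 sample against 1, so no test was made. The call rule was run on simulated data, but the outcome is not given here and no accuracy is claimed for the rule. Where a probe was dim at 1 age, its fold was taken against the higher of its own signal and the lowest signal well above background. Such a fold is read with its spot error. Python 3.11.15 and, for loess (span 0.3) and normexp (offset 50), limma 3.58.1 were used.

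The members and lists were chosen with earlier results of these data known. Named genes are all 10 members, called genes of the pathway and secretory lists, and the highest and lowest of each role with at least 3 usable probes. Ptcra, Dll3, Dtx3, Hey2, Olfm4, Gfi1, Ltb, Tagln, Lgr5 and S100b were named after their values were seen. Other lists were matched through RefSeq symbols and synonyms, and 60 of 64 pathway genes had probes. Of 12 alternatives 1, the split by annotation, was chosen after seeing the data.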

Additional observations from a re-analysis of the deposited data

How the results depend on the processing

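The 10 Notch regions were recomputed under 9 alternatives, of which the authors' value table holds the same signals and could not differ. Normexp correction starts from mean spot signals and also leaves out the scanner's detrending and dye scaling, so which step moved a value was not tested. Notch1, Notch2, Notch3, Notch4, Dll1, Hes1 and Hes5 kept the sign of their medians under all 9, Jag1 under 8, and Dll4 and Jag2 under 7. No region was called under any of the 9. Dll1 ranged from -1.49 to -0.45 and Hes5 from -0.78 to -0.18, in both cases nearest 0 after normexp correction, and the mean over the Dll1 probes was -0.67. Leaving out centring shifts every value on the second array by -0.14. Hes5 had -0.59 when its probe that was dim at 32 months was left out. Of the 49 usable probes 48 kept their sign uncentred, 48 after loess and 37 after normexp correction, when 0 lay at -1 or less and 3 at 1 or more. Over both arrays 309 regions were called higher and 97 lower. This became 812 and 433 at a threshold of 0.5, 580 and 175 with regions split by annotation, 457 and 157 without the demand that probes agree, 427 and 156 without the probe farthest from the median, 246 and 56 with dim probes kept, and 421 and 20 after normexp correction. Counts of called Notch regions changed from 0 in 3 cases. With a threshold of 0.5 on the log2 scale, 1 Notch region (Notch3) was called higher. Without the demand that probes agree, 1 (Dll1) was called lower, and with regions split by annotation 1 (Dll1 inside) was called lower. The wider pathway had 6 regions called higher and 1 lower at a threshold of 0.5, and 5 higher with regions split by annotation, against 3 and 0. Nov, Dtx1 and Hes7 stayed called under all 9 alternatives, at 2.48 to 2.97, 2.43 to 2.99 and 1.21 to 1.85. Spdef was not called uncentred, after loess or after normexp correction. No paired analysis was possible because each age has 1 sample per array.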
